A study of Arabidopsis thaliana with 9 samples.

Results

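The AGO4-bound transcripts described here lie around the centromeres of *Arabidopsis thaliana* and outside every Pol V transcript that the study called. They were chosen by position alone from the list of transcripts called by AGO4 RNA immunoprecipitation sequencing (AGO4 RIP-seq). A transcript was taken if it shared no base with an AGO4-bound transcript of the other strand and none with a Pol V transcript of either strand. Its start also had to lie within 11.5 to 18 Mb of chromosome 1, 1 to 7.3 Mb of chromosome 2, 10.5 to 17.3 Mb of chromosome 3, 1.5 to 6.4 Mb of chromosome 4 or 9 to 15.6 Mb of chromosome 5. Of the 3940 AGO4-bound transcripts, 263 met the rule. The plus strand carried 141 of them and the minus strand 122. Chromosomes 1 to 5 carried 60, 47, 47, 43 and 66 of them.

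The study precipitated nuclear RNA with an anti-AGO4 antibody from ago4 plants, which carry the ago4-1 allele introgressed into Col-0, and from Col-0 wild type. Both were grown on soil for about 2.5 weeks, and their aerial parts were fixed with 0.5% formaldehyde and sequenced with a stranded kit. Each genotype had 1 AGO4 RIP-seq library, so no value below has an error between libraries and no test was made. The AGO4 RIP-seq library of nrpe1, a mutant in the largest subunit of Pol V, was not analysed here. Pol V RIP-seq entered only through the coordinates of its 4502 called transcripts. A place outside these calls may still be transcribed by Pol V, which was not tested.

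AGO4 is an Argonaute protein that carries small interfering RNAs and takes part in RNA-directed DNA methylation. In this pathway RNA polymerase V (Pol V) makes non-coding RNA at silenced loci. AGO4 is proposed to find its targets by pairing of its small RNA with that RNA. Pericentromeric sequence is rich in transposons and pseudogenes and poor in active genes, and it is kept silent mainly by DNA methylation and histone marks. Transposon annotation was not analysed here.

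The letters of the members with the most Col-0 reads show what kind of sequence AGO4 RIP-seq recovered at these places. Each is written 5′ to 3′ along the strand of the transcript, as 300 bases around its middle, from the TAIR10.1 genome. Capitals mark matches on either strand to any of 3 motifs. The first, the core of the B box of RNA polymerase III promoters, was searched as GTTCGANNC. The second was the TATA box of RNA polymerase II promoters, taken as TATAAA with no other letter allowed. The third was the repeat that makes up plant telomeres, searched as TTTAGGG. AGO4_Trans1134 is shown from chr2:4481071-4481370 (plus strand), AGO4_Trans1077 from chr2:2358052-2358351 (minus strand), AGO4_Trans2566 from chr4:5082598-5082897 (minus strand) and AGO4_Trans547 from chr1:17560771-17561070 (minus strand).
AGO4_Trans1134: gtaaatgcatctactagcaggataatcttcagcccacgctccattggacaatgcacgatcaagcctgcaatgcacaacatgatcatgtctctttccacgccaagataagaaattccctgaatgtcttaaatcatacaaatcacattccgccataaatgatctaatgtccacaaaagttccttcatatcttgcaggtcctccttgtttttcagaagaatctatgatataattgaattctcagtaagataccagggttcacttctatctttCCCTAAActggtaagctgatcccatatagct
AGO4_Trans1077: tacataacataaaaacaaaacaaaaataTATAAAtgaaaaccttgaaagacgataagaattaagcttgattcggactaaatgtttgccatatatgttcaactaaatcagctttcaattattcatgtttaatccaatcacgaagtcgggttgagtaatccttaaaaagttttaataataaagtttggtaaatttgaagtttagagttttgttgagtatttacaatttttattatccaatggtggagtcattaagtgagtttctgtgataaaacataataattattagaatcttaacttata
AGO4_Trans2566: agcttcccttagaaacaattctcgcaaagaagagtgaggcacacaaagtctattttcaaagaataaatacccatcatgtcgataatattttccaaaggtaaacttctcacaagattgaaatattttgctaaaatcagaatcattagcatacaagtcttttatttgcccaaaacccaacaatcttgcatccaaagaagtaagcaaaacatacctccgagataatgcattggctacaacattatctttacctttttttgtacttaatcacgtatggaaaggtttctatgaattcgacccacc
AGO4_Trans547: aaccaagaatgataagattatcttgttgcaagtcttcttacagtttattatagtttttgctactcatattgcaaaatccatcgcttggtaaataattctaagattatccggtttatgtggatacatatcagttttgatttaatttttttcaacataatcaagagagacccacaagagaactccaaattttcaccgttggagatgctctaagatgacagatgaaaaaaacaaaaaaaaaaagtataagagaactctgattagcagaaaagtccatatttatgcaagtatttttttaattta

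Some short members are shown whole, among them AGO4_Trans377 and AGO4_Trans376, the shortest of all. AGO4_Trans3396, the third shortest, is not shown. AGO4_Trans376 (chr1:11670611-11670738), AGO4_Trans377 (chr1:11671521-11671638) and AGO4_Trans378 (chr1:11672202-11672353) follow each other on the minus strand, and the last was added after its values were seen because it completes the run. AGO4_Trans3445 (chr5:11845480-11845757, plus strand) is the member farthest from any Pol V transcript.
AGO4_Trans376: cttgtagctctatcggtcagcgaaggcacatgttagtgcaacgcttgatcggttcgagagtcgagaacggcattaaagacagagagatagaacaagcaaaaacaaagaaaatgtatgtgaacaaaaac
AGO4_Trans377: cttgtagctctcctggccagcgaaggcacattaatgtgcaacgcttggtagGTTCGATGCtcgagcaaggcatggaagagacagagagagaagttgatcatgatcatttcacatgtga
AGO4_Trans378: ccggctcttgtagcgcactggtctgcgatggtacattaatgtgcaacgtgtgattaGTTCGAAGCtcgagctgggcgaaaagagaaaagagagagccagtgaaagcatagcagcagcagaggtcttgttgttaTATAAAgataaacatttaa
AGO4_Trans3445: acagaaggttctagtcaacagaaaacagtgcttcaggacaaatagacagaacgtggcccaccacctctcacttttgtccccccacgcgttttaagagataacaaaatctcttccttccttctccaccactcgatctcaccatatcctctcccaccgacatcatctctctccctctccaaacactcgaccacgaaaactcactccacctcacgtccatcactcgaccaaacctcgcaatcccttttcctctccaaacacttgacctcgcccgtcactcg
AGO4_Trans376 and AGO4_Trans377 share their first 11 bases and 68.9% of their aligned positions. AGO4_Trans377 and AGO4_Trans378 share a stretch of 16 bases and 61.3% of their aligned positions, and both hold the B box core once. Against AGO4_Trans3396, another short member from chromosome 5, the same alignment gave 47.0 to 47.9%. Among the members, 4 of the 263 windows of 300 bases held the B box core (1.52%), 102 held the TATA box (38.8%) and 8 held the telomere repeat (3.04%). Over all 102939 windows tiled across the same Mb, the shares were 1.82%, 34.4% and 5.07%. A match describes the letters and is not evidence of a bound factor.

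On the 263 transcripts ago4 had 451 reads and Col-0 had 12428, out of 6245 and 118313 on the whole AGO4 list. These are sums over called transcripts, not library depths, which are unknown here, and the genotypes were compared as if equally deep. The authors called the list on these same libraries for reads in Col-0 and for enrichment over ago4, so the difference between the genotypes is not independent of the calling. The reads had no molecular identifiers, and the intervals and floors below cover no error between libraries. They were computed on all reads, with a median of 1.93 Col-0 reads per deduplicated read over the members. Duplicate reads are not independent counts, so the intervals are too narrow even for counting error. Because the list holds called transcripts and no whole genes, neither the ago4 mutation nor the tissue could be checked from it. No RNA without immunoprecipitation was analysed, so more RNA at a place and more binding by AGO4 cannot be told apart.

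The members were mostly weakly covered. In ago4 the median member had 0 reads and the highest 43, against a median of 14 and a range from 5 to 4633 in Col-0. No read was found in ago4 for 181 members (68.8%), beside 72.7% of the whole list. A single ago4 read was found for 23 members, 2 or 3 reads for 25, and more than 3 for 34. The fold was taken as Col-0 over ago4, and where ago4 had no read as a lower bound against a floor of 3 reads. By that rule 55 members were at least 10-fold higher in Col-0 (20.9%), beside 22.6% of the whole list. Of the 55, 51 had a read in ago4 and 4 had none. With ago4 taken as at least 3 reads throughout, 28 members reached 10-fold (10.7%), beside 14.6% of the whole list.

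Whether a read was seen in ago4 went with how many were seen in Col-0. None of the 42 members with fewer than 10 Col-0 reads had an ago4 read, and 119 of the 136 with 10 to 20 had none (87.5%). Of the 60 members with 21 to 50 Col-0 reads, 19 lacked an ago4 read (31.7%), and of the 25 with more than 50 only AGO4_Trans1098 did, with 0 reads in ago4 and 64 in Col-0. Since the list was filtered on the fold, a transcript with few Col-0 reads could hold few ago4 reads or none. The lowest ratio among members with an ago4 read was 6.17, beside 6.06 on the whole list, and is set by that filter. Across the 263 members, which share both libraries, reads in Col-0 and in ago4 had a Spearman rho of 0.716. The filter caps ago4 reads by Col-0 reads, so it in part sets this rho.

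**Figure D1:**
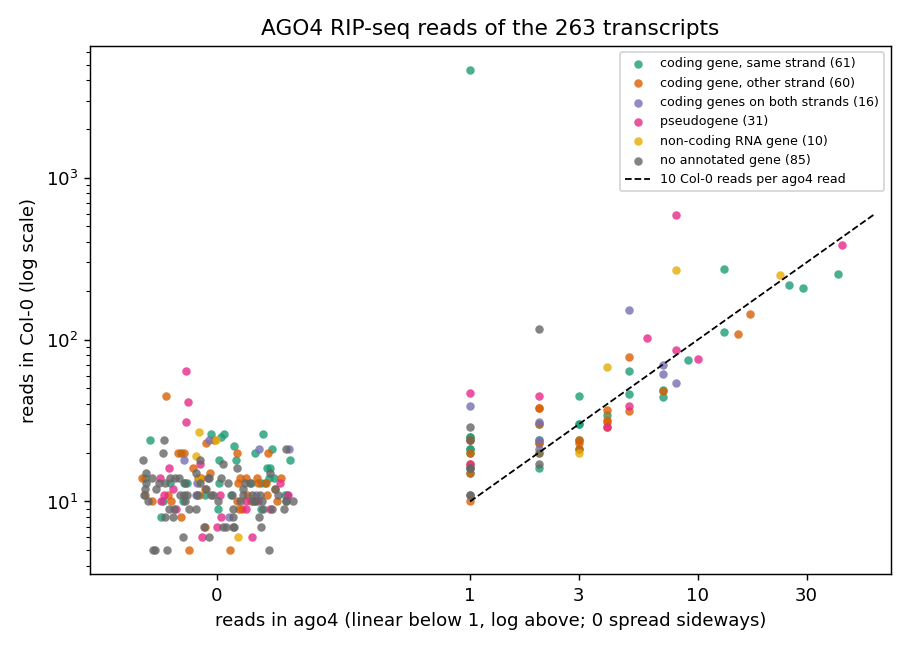
Reads of each of the 263 transcripts in ago4 (horizontal axis, linear below 1 and logarithmic above, zeros spread sideways) and in Col-0 (vertical axis, logarithmic), coloured by the annotated gene they overlap; the dashed line marks 10 Col-0 reads per ago4 read. The 181 transcripts without an ago4 read have at most 64 Col-0 reads, and AGO4_Trans1134 stands alone at 1 read in ago4 and 4633 in Col-0.

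Beside the other AGO4-bound transcripts, the members resembled neither neighbour set in every respect. Transcripts of chromosome arms outside Pol V transcripts (1832) lacked an ago4 read in 58.2% of cases, and transcripts of the same Mb that lie on a Pol V transcript (476) in 89.9%. At 10 to 20 Col-0 reads the share was 87.5% for the members, 650 of 812 on the arms and 94.7% on Pol V transcripts. Over the whole list it was 87.7%. At 21 to 50 Col-0 reads it was 31.7% for the members, 33.2% on the arms, 77.1% on Pol V transcripts and 51.5% over the whole list. Thus the members stood at about the share of the whole list at 10 to 20 Col-0 reads, and near the arm transcripts at 21 to 50. These are counts within 1 library per genotype, and the differences between sets were not tested.

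**Figure D2:**
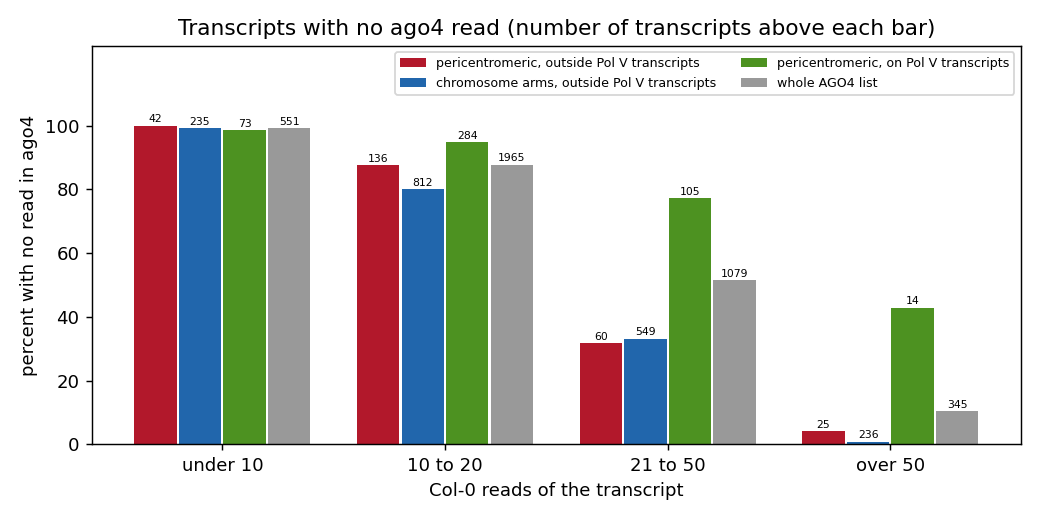
Percent of transcripts with no read in ago4, by the number of Col-0 reads, for the 263 pericentromeric transcripts outside Pol V transcripts, the 1832 arm transcripts outside Pol V transcripts, the 476 pericentromeric transcripts on Pol V transcripts and the whole list of 3940; the number of transcripts stands above each bar. Among transcripts with 21 to 50 Col-0 reads, the first 2 sets reach 31.7% and 33.2%, the third 77.1% and the whole list 51.5%.

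AGO4_Trans1134 held 37.3% of all Col-0 reads of the members and ranked first in the whole AGO4 list. It had 1 read in ago4 and 4633 in Col-0, a ratio of 4633 with an exact 95% interval of 831 to 183033. Its Col-0 reads were 7.92 times those of the next member. It spans 6969 bp on the plus strand of chromosome 2, from 4477737 to 4484705. On this strand it overlaps AT2G11225 (4478424 to 4483467) and the short AT2G11215, which are annotated as coding for uncharacterized proteins, and on the other strand it covers most of the pseudogene AT2G11240. The nearest Pol V transcript, PVTrans1391, lies 713 bp away. Without AGO4_Trans1134 the members had 450 reads in ago4 and 7795 in Col-0, and the medians of reads, read density and fold were 14 reads, 2.91 reads per 100 bp and 4.67.

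The 10 members with the most Col-0 reads held 58.1% of them, and the other 253 held 41.9%. More than 100 Col-0 reads were found for 15 members (5.70%), beside 3.38% of the whole list, and all 15 had an ago4 read. For 9 of them a coding gene on the same strand ended inside the member or within 500 bp before it. This held for 43.0% of all members and 44.0% of the whole list. AGO4_Trans1077 had 8 reads in ago4 and 585 in Col-0, a ratio of 73.1 (exact 95% interval 36.9 to 170). It begins directly behind OPR3, which codes for an enzyme of jasmonate synthesis, and runs antisense over the pseudogene AT2G06045. AGO4_Trans2566, the longest member with 7747 bp, had the most reads in ago4, 43, against 383 in Col-0 (ratio 8.91, 6.49 to 12.5). It lies over the pseudogenes AT4G08100 and AT4G08110 on chromosome 4, and 17.5% of its 50-base words occur more than once in the nuclear genome.

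Other members with many reads also lay at or over the ends of coding genes. AGO4_Trans547 had 13 reads in ago4 and 274 in Col-0 (ratio 21.1, exact 95% interval 12.1 to 40.1) and begins 34 bp before the annotated 3′ end of OSB1, a single-stranded DNA-binding protein of organelles. AGO4_Trans408 begins inside the leucine-rich repeat gene AT1G33590, runs past its 3′ end and had 41 reads in ago4 and 253 in Col-0. Its ratio of 6.17 (4.42 to 8.81) was the lowest of the members with an ago4 read, near the cut of the calling. AGO4_Trans487, which begins inside AT1G42470 of the Patched family and runs past its 3′ end, had 25 reads in ago4 and 217 in Col-0 (ratio 8.68, 5.72 to 13.7). The intervals of these last 2, taken on all reads with duplicates, overlap each other, and both lie below the interval of AGO4_Trans1077. AGO4_Trans2129, at the end of the mRNA deadenylase gene CAF1a, had 29 reads in ago4 and 208 in Col-0 (ratio 7.17, 4.85 to 11.0). AGO4_Trans2498 starts at the last base of RbcX1, a gene for a chaperone of Rubisco, and runs antisense into the malonyl-CoA decarboxylase gene AT4G04320, with 5 reads in ago4 and 153 in Col-0 (ratio 30.6, 12.8 to 95.6).

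By length, reads were densest on the run of short members at 11.7 Mb of chromosome 1, whose sequences are shown above. AGO4_Trans377 had 8 reads in ago4 and 268 in Col-0 on 118 bp, or 227 Col-0 reads per 100 bp, the highest density of the members. AGO4_Trans378 had 23 reads in ago4 and 249 in Col-0, or 164 Col-0 reads per 100 bp. AGO4_Trans376 had 2 reads in ago4 and 117 in Col-0, or 91.4 Col-0 reads per 100 bp. The median over all members was 2.92 Col-0 reads per 100 bp. AGO4_Trans377 lies within AT1G09125, a transcribed region of unknown kind, AGO4_Trans378 overlaps the long non-coding RNA gene AT1G06537, and AGO4_Trans376 overlaps no annotated gene. Their ratios were 33.5 (exact 95% interval 16.8 to 78.4), 10.8 (7.05 to 17.4) and 58.5 (15.8 to 489). None of the 3 holds a 50-base word that occurs elsewhere in the nuclear genome, and the nearest Pol V transcript lies 19946 to 21561 bp away.

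The members fell into 6 runs of neighbours on 1 strand with gaps of at most 1000 bp, which took in 15 members, and merging members of either strand at that distance left 252 regions. The run of AGO4_Trans2564, AGO4_Trans2565 and AGO4_Trans2566 spans 12985 bp on chromosome 4, where each of them overlaps at least part of a pseudogene, and had 49 reads in ago4 and 527 in Col-0. AGO4_Trans2502, AGO4_Trans2503 and AGO4_Trans2504, also on chromosome 4, had 22 reads in ago4 and 230 in Col-0, and the middle one overlaps the microRNA gene MIR841b on the same strand. AGO4_Trans524 lies inside TLL1, a lipase-like gene on chromosome 1, and AGO4_Trans525 starts 374 bp behind that gene. AGO4_Trans525, the third longest member with 3835 bp, covers 89.1% of the Remorin family gene AT1G45207 on the other strand, with 5 reads in ago4 and 78 in Col-0.

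Genes on either strand were overlapped by 178 members (67.7%) in the annotation of TAIR10.1. Coding genes on the same strand alone were overlapped by 61 members, on the other strand alone by 60 and on both by 16, which makes 137 with a coding gene (52.1%). A further 31 overlapped a pseudogene, 10 a non-coding RNA gene and 85 no gene at all (32.3%). On the arms 78.1% overlapped a coding gene and 17.4% no gene. On Pol V transcripts of the same Mb these shares were 21.4% and 60.5%, and over the whole list 50.8% and 37.2%. The members thus lay between both sets. Pseudogenes were overlapped by 14.4% of members, 2.78% of arm transcripts and 12.8% of the transcripts on Pol V transcripts. The authors left out reads inside TAIR10 genes and removed called transcripts containing such a gene, which in part sets these overlaps. With a coding gene over no less than 50% of their length, 33.8% of members counted.

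**Figure D3:**
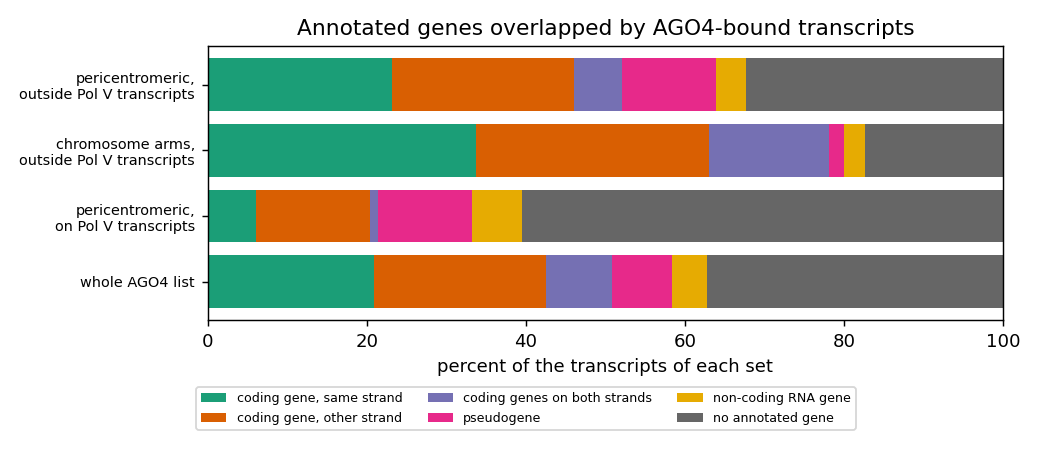
Percent of the transcripts of each set that overlap a coding gene on the same strand, on the other strand or on both, otherwise a pseudogene, otherwise a non-coding RNA gene, or no annotated gene; overlap is at least 1 bp. The 263 pericentromeric transcripts outside Pol V transcripts (top bar) have 32.3% without a gene, beside 17.4% on the arms and 60.5% on Pol V transcripts of the same Mb.

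Members with and without genes differed in their reads. The 85 members outside genes had 12 reads in ago4 and 1112 in Col-0, a median of 11 Col-0 reads, and no ago4 read in 89.4% of cases. The 61 on a coding gene of the same strand had 187 reads in ago4 and 6900 in Col-0, of which AGO4_Trans1134 holds 1 and 4633. Their median was 20 Col-0 reads, and 55.7% had no ago4 read. The 60 antisense to a coding gene had 90 reads in ago4 and 1386 in Col-0, with a median of 15 and 61.7% without an ago4 read. The 31 on pseudogenes had 88 reads in ago4 and 1735 in Col-0, with a median of 14 and 67.7%. Over the whole list 90.05% outside genes, 60.5% on the same strand, 63.3% antisense and 77.4% on pseudogenes had no ago4 read. Among members with 10 to 20 Col-0 reads, the shares of these classes lay closer together. They were 89.3% of 56 outside genes, 85.7% of 28 on the same strand, 87.5% of 32 antisense and 91.7% of 12 on pseudogenes. Non-coding RNA genes (50% of 4) and coding genes of both strands (100% of 4) stood apart, on few members. Among members with 21 to 50 Col-0 reads the shares did not lie closer together. They were 50% of 4 outside genes, 31.8% of 22 on the same strand, 15.8% of 19 antisense and 33.3% of 6 on pseudogenes. Non-coding RNA genes had 100% of 2 and coding genes of both strands 42.9% of 7. The most covered member outside genes was AGO4_Trans376.

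A coding gene ended on the same strand within 500 bp before the 5′ end of a member, or inside the member, for 113 members (43.0%). This share was 71.6% on the arms, 13.4% on Pol V transcripts of the same Mb and 44.0% over the whole list. The 113 had 293 reads in ago4 and 4288 in Col-0, with a median of 18 Col-0 reads, and 55.8% had no ago4 read. The other 150 had 158 reads in ago4 and 8140 in Col-0, with a median of 12.5, and 78.7% had no ago4 read. At 10 to 20 Col-0 reads the shares without an ago4 read were 84.2% of 57 and 89.9% of 79. At 21 to 50 Col-0 reads they were 22.9% of 35 and 44.0% of 25. The gap between the gene's 3′ end and the 5′ end of the member had a median of -3 bp, where a negative value is a start inside the gene. It was -11 bp on the arms and -3 bp over the whole list. Reads inside TAIR10 genes were left out of the calling, which in part sets starts near gene ends. The middle 50% ran from -102 to 27 bp, and 71 of the 113 gaps were at most 100 bp in size (62.8%), beside 66.6% on the arms.

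The examples of such members that follow were picked after their values were seen. AGO4_Trans2536 starts 4 bp behind UBQ10, a polyubiquitin gene, and had 7 reads in ago4 and 48 in Col-0. AGO4_Trans1085 starts 47 bp behind PSBX, a gene for a photosystem II subunit, and had 5 reads in ago4 and 36 in Col-0. AGO4_Trans1240 starts 1 bp behind COR413-PM1, a cold-regulated gene, and had 0 reads in ago4 and 45 in Col-0. That is 15-fold against the floor of 3 reads, on all reads, and 25 Col-0 reads were left after deduplication. AGO4_Trans3354 starts 9 bp behind FC1, a ferrochelatase gene of heme synthesis, and covers 81.5% of the histone deacetylase gene HDA2 on the other strand, with 15 reads in ago4 and 109 in Col-0 (ratio 7.27, exact 95% interval 4.22 to 13.4). AGO4_Trans1076 covers 98.5% of the F-box gene AT2G06040 on the other strand, with 17 reads in ago4 and 144 in Col-0 (ratio 8.47, 5.11 to 14.9). In all, 7 members covered more than 80% of a coding gene on the other strand (2.66%). The share was 6.50% on the arms (119 of the 1832 transcripts) and 3.91% over the whole list. The authors removed called transcripts that contained a TAIR10 gene, which in part sets these shares.

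**Figure D4:**
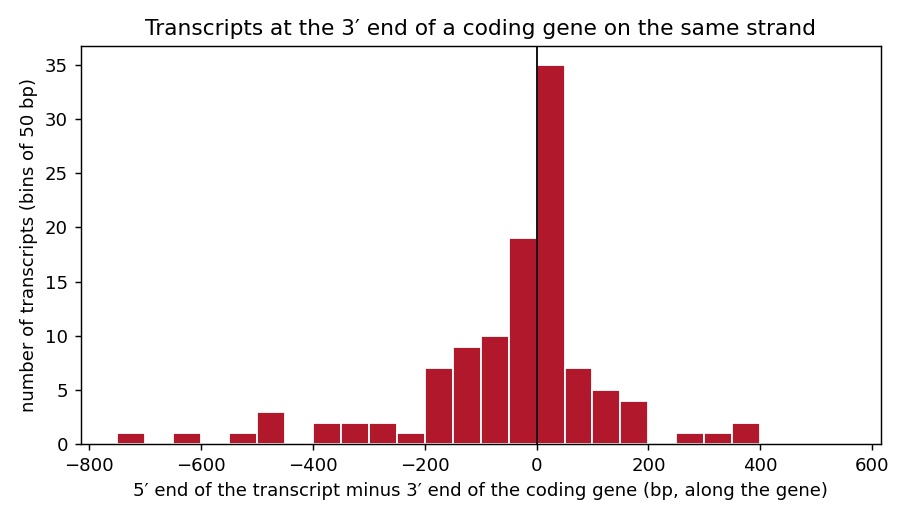
Distance in bp along the gene from the 3′ end of a coding gene to the 5′ end of the transcript on the same strand, for 113 pericentromeric AGO4-bound transcripts outside Pol V transcripts, in bins of 50 bp; the vertical line marks the gene's annotated end. The counts peak at the line, with a median of -3 bp, and the calling from reads outside TAIR10 genes in part sets this.

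The members were thinly spread and lay toward the edges of the pericentromeric windows. In 31.1 Mb there were 8.46 members per Mb, against 20.8 such transcripts per Mb on the arms. Pol V transcripts ran the other way, with 61.2 per Mb in the windows and 29.5 per Mb on the arms. By chromosome the members ranged from 6.91 per Mb on chromosome 3 to 10 per Mb on chromosome 5, and their median Col-0 reads from 13 to 17. On a scale from 0 in the middle of a window to 1 at its edge, the median member stood at 0.713 and the median Pol V transcript of the windows at 0.648. The stretch from 0.8 to 1 on this scale held 35.0% of the members, 25% of the AGO4-bound transcripts on Pol V transcripts and 25.1% of all Pol V transcripts. The members on pseudogenes stood farther in, at a median of 0.461. The bounds themselves were set by the rule. The 10 members nearest to them, 16.1 to 104 kb inside, had at most 1 read in ago4 and 9 to 24 in Col-0, and the 10 transcripts nearest outside, 3.11 to 226 kb away, had at most 38 in ago4 and 8 to 233 in Col-0.

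**Figure D5:**
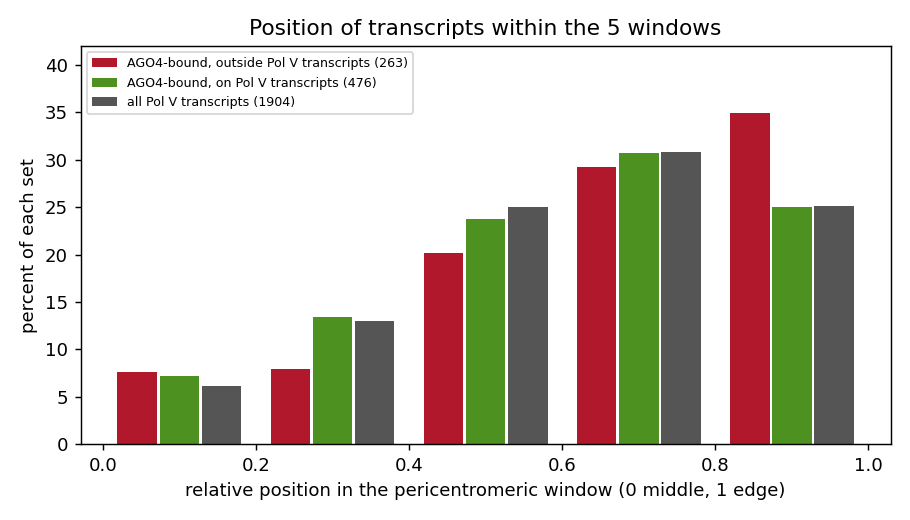
Percent of each set by relative position in the pericentromeric windows of the 5 chromosomes, where 0 is the middle and 1 the edge: the 263 AGO4-bound transcripts outside Pol V transcripts, the 476 on Pol V transcripts and the 1904 Pol V transcripts of the windows. The last bin holds 35.0% of the first set, 25% of the second and 25.1% of the third.

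To the nearest Pol V transcript of either strand the median distance was 4494 bp, and 7000 bp on the same strand alone. On the arms, with 29.5 Pol V transcripts per Mb against 61.2 per Mb in the windows, the median was 19386 bp. The distance from places in the windows at large was not computed, so the shorter distance is not shown to be particular to the members. A Pol V transcript lay within 1 kb of 32 members (12.2%), and none lay within 20 kb of 21 members. The nearest pairs were AGO4_Trans2561, on a pseudogene of chromosome 4, at 11 bp, AGO4_Trans2157, which follows the lipoxygenase gene LOX2, at 192 bp, and AGO4_Trans2079 at 226 bp. These 3 had no read in ago4 and 11, 10 and 15 in Col-0. The farthest were AGO4_Trans3445 at 222874 bp, AGO4_Trans374 at 65214 bp and AGO4_Trans1104 at 64569 bp, with no read in ago4 and 7, 14 and 6 in Col-0. Reads on both groups were few, and their counting intervals in Col-0 overlap. AGO4_Trans374 is antisense to IWS1, a gene for a transcription elongation factor.

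Sequence limits how surely some of these reads were placed, since reads that match several places were put at 1 of them. A 50-base word that occurs more than once in the nuclear genome was held by 48 members (18.3%), near the 17.7% of the whole list. The share was 8.95% on the arms and 23.9% on Pol V transcripts of the same Mb. Among the 31 members on pseudogenes 14 held one (45.2%), beside 34.3% of such transcripts on the arms and 40.7% over the whole list. For 4 members more than 50% of the words were repeated, among them AGO4_Trans3445 with 80.4%. All words of AGO4_Trans1104 and 42.7% of those of AGO4_Trans3539 also occur in an organelle genome. No other member shared a word with an organelle genome. The part of such words in the reads was not tested. In base composition the members had a median of 35.3% GC, beside 35.6% on the arms and 34.7% on Pol V transcripts, with 31.9% for members outside genes and 38.9% for those on pseudogenes. Their median length was 487 bp, beside 537 bp on the arms and 476 bp on Pol V transcripts. Length went with reads, at a Spearman rho of 0.628 over the members. The calling joined neighbouring reads and required a minimum read density, so it in part sets this rho.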

How the data were processed

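RNA was immunoprecipitated with an anti-AGO4 antibody from ago4 and Col-0 plants, 1 library each. The authors mapped reads to TAIR10 with SOAPsplice and placed non-unique reads once. Unique reads outside TAIR10 genes were joined into transcripts, which were filtered by Col-0 reads, read density and fold over ago4. Called transcripts that contained a TAIR10 gene were removed. The deposited read counts are whole numbers that the authors gave for each transcript in each library, with and without duplicate reads, and not normalized. Of the Pol V list only coordinates were used; its deposited p-value and q-value columns hold the authors' test and were not used. Of the columns with values per library in the AGO4 list, 0 were left unused.

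Deposited starts were read as counting from 0, since length equals end minus start, which leaves a doubt of 1 base; printed starts count from 1. Gene annotation was that of RefSeq for TAIR10.1, which is not the gene set used for calling. All reads were the main count. Ratios have exact conditional binomial 95% intervals, and 0 reads in ago4 were replaced by a floor of 3. Scripts ran in Python 3.11.15; pandas 2.3.3, scipy 1.17.1 and numpy 2.4.6 served for the tables and matplotlib 3.10.9 for the plots. Overlap, interval and word-counting functions were tested on simulated data.

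Members were named by a rule: the 10 with the most Col-0 reads, the 5 densest, the 3 longest, the 3 shortest, the 3 with the most ago4 reads, the 3 farthest from and the 3 nearest to a Pol V transcript; others are named as neighbours or were chosen after their values were seen. The members and lists were chosen with earlier results of these data known. The classes of annotation, of Col-0 reads and of position at gene ends, and the runs, were set after the data were seen. Alternatives changed the overlap rule, windows, read filter, duplicate reads, floor and assumed depth.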

Additional observations from a re-analysis of the deposited data

How the results depend on the processing

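Of 40 alternatives to 11 values, 25 stayed within the 95% interval of the main median or share over transcripts, or within 1.5 times for the number of members, and 15 moved. No paired analysis was possible because each genotype had 1 AGO4 RIP-seq library and no test was made. The number of members was 321 when only an overlap of 50% excluded a transcript, 186 with the windows narrowed by 0.5 Mb and 252 after merging, against 263. Keeping the 89 members with at least 10 deduplicated Col-0 reads gave a median of 31 Col-0 reads, 3.90 reads per 100 bp, a length of 941 bp and a fold of 9, with 25.8% lacking an ago4 read and 58.4% at the 3′ end of a coding gene. This filter keeps the deeper transcripts by construction. Deduplicated reads gave a median of 7 Col-0 reads, 1.50 reads per 100 bp and a fold of 2.33. The median fold of 4.67 became 12 with a pseudocount of 1 in place of the floor, 2.33 with ago4 taken as 0.5 times as deep as Col-0 and 9.33 with ago4 taken as 2 times as deep. When only an overlap of 50% excluded a transcript, the median length was 526 bp. An overlap of 50% of the transcript left 33.8% on coding genes, and the distance to a Pol V transcript on the same strand was 7000 bp. The alternatives for gene ends, for ago4 at a minimum of 3 reads and without AGO4_Trans1134 were chosen after seeing the data. Depth limits the folds: at the median of 14 Col-0 reads and 0 in ago4, no fold above 4.67 could be shown.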
